A study of Mus musculus with 6 samples.

Results

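The genes described here are 10 markers by which the inhibitory interneurons of the hippocampus are sorted into subtypes: Sst, Npy, Vip, Cck, Pvalb, Calb2, Reln, Lhx6, Nos1 and Cnr1. They were chosen by gene name, with earlier results of these data known, and are 10 of the 24935 genes in the deposited table. All 10 were among the 17778 genes with a mean normalized count of at least 10, which were tested. The mRNA came from the whole left hippocampus of C57BL/6 mice at postnatal day 14. The pups, of both sexes and housed with their dams, had breathed either ambient air (3 mice) or normobaric 85% oxygen (hyperoxia, 3 mice) from postnatal day 2 to postnatal day 14. The labels name no transgene or altered allele, and 1 library was made per mouse. The sex and the litter of each mouse were not found in the sources used here. Libraries are numbered 1 to 3 within a group as in the deposited columns, where a number names a column and not an animal. Every direction below follows the group named in those columns. Whether the columns carry the right group names could not be settled here, the sources used leave it in doubt, and an exchange of the names would turn every direction and fold change given below.

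Interneurons release gamma-aminobutyric acid (GABA) and control when and where pyramidal and granule cells fire. In the hippocampus they are classed by the peptides, calcium-binding proteins and receptors they make. Cells that contain parvalbumin or somatostatin arise mostly in the medial ganglionic eminence of the embryo, while those with vasoactive intestinal peptide, cholecystokinin or calretinin arise mostly in the caudal one. Parvalbumin basket cells inhibit the cell bodies of pyramidal cells, somatostatin cells inhibit their dendrites, and many cells with vasoactive intestinal peptide or calretinin inhibit other interneurons. Several of the 10 genes are also made by other cells. Pyramidal cells make Cck, Cnr1 and Nos1, mossy cells of the mouse dentate hilus and neurons of the thalamus make Calb2, and Cajal-Retzius cells make Reln. In RNA from whole tissue, fewer cells of a type and less RNA per cell cannot be told apart.

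The reads assigned to genes came to between 30384052 and 38746972 per library, and the 10 markers had between 331 and 15457 reads each in a library. For Pvalb and Vip in air, the coefficients of variation between libraries, 3.8% and 5.29%, were close to what counting error alone gives for their mean reads, 3.87% and 4.58%. In hyperoxia these markers varied by 21.6% and 20.3%, against counting errors of 5.22% and 3.84%. The other markers varied by more than counting error in air too, from Cnr1 at 2.34% against 1.32% to Calb2 at 14.3% against 2.14%. Genes of the principal cells of the hippocampus were read in every library. The summed normalized counts of 12 pyramidal cell genes lay between 139100 and 147800 in air and between 111300 and 117700 in hyperoxia, and those of 11 dentate granule cell genes between 29570 and 30090 and between 19790 and 27240. Markers of neighbouring tissue were read too. Those of thalamus and habenula (13 genes tested, Calb2 among them) summed to 8879 to 9509 in air, while the 3 hyperoxia libraries read 10900, 15140 and 11690. Those of striatum (9 genes tested) summed to 3492 to 3913 in air and 4081 to 5234 in hyperoxia, and those of neocortex (11 genes) to 11930 to 13160 and 13740 to 15920. Choroid plexus markers (9 genes tested) reached 15980 in hyperoxia library 3, against 4196 to 6381 in the other libraries. No gene of these lists was at 0 in all libraries. The part of the dissection in the results below was not tested.

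Promoter sequences are shown for Sst, Vip and Cck, whose promoters hold the motif TGACGTCA of the cyclic AMP response element or its shorter core TGACG, and for Pvalb and Reln, the markers with the largest fall and rise. The sequences are from RefSeq (GRCm38.p6), on the strand of the gene and 5′ to 3′, and end at the base before the annotated start, except that of Sst, which is a window of 30 bases around the motif, whose first base lies at -48 from the start. They lie at chr16:23890874-23890903 (Sst, minus strand), chr10:5639098-5639217 (Vip, plus strand), chr9:121495695-121495814 (Cck, minus strand), chr15:78206401-78206520 (Pvalb, minus strand) and chr5:22344706-22344825 (Reln, minus strand). The RefSeq start of Sst, at 23890844, is not the GENCODE start, at 23890958. The Sst window thus lies within the gene position given for Sst below. Capitals mark TGACGTCA, TGACG (read on either strand, so also CGTCA) and the TATA box TATAAA.
Sst promoter: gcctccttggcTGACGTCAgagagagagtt
Vip promoter: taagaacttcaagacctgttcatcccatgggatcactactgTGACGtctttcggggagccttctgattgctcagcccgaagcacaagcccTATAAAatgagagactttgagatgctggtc
Cck promoter: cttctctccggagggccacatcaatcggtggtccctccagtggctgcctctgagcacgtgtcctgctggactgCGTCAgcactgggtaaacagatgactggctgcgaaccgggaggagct
Pvalb promoter: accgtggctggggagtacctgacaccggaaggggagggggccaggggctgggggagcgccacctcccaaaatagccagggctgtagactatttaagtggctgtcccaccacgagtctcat
Reln promoter: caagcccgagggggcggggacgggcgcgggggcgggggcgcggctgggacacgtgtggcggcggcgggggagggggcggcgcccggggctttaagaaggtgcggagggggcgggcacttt

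RefSeq promoters, 250 bases before to 50 after a start, were at hand for 9 of the 10 markers (14 promoters), all but Calb2. Of these markers, 1 (Sst) held TGACGTCA, which 1.79% of 32851 RefSeq promoters of 300 bases hold on either strand. Another 3 held TGACG without the full motif: Vip at -79, Cck at -47 and Nos1 at -130 from the start, against 19.0% of promoters. The RefSeq start of Nos1, at 117866839, lies within the gene position given for Nos1 below. TATAAA was found in Vip, nearest at -30, and in 1 promoter of Lhx6, where it lay after the start, against 13.6% of promoters. The counts here are per marker and the shares per promoter, and Pvalb, Lhx6 and Cnr1 each had more than 1 promoter. A match is a description of letters and not of a bound site. The 4 markers with a match to TGACGTCA or TGACG differed in their values: Vip was higher and Cck lower in hyperoxia, and Sst and Nos1 did not pass the test.

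In the libraries labelled 85% oxygen, Reln and Vip mRNA were higher and Pvalb and Cck mRNA were lower than in those labelled air, with mean ratios of 1.70, 1.40, 0.552 and 0.786. These directions stand or fall with the group names of the columns, as do all that follow. Sst, Npy, Calb2, Lhx6, Nos1 and Cnr1 did not pass the test. Here, called means an adjusted p under 0.05 in limma on log2(normalized count + 1), with p-values adjusted by Benjamini-Hochberg over every gene tested. Thus 4 of the 10 markers were called, 2 higher and 2 lower, while 30.5% of all genes tested were called (14.9% higher and 15.6% lower). For 5 of the 10, the libraries of the 2 groups did not overlap, against 46.1% of all genes tested (3 with hyperoxia above against 22.3%, and 2 below against 23.8%). The share of markers called therefore lay near that of all genes. The calls of Reln and Pvalb held in all 17 alternative settings, those of Cck in 12 and of Vip in 11. Hyperoxia library 2 stood apart from the other hyperoxia libraries for several markers and was the highest of all 6 libraries for 4 of them (Sst, Npy, Calb2 and Lhx6). Without it, 7 of the 10 markers were called (Cck, Npy, Pvalb and Sst lower, Cnr1, Reln and Vip higher), against 43.7% of all genes (3 higher against 21.6%, and 4 lower against 22.1%). The same 4 markers as over all libraries were called in edgeR, in DESeq2 and under quantile normalization, where 30.9%, 31.6% and 30.2% of all genes were. In limma without the trend and after a correction for transcript length and GC content, only Reln and Pvalb were called of the 10, beside 23.8% and 34.5% of all genes.

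**Figure D1:**
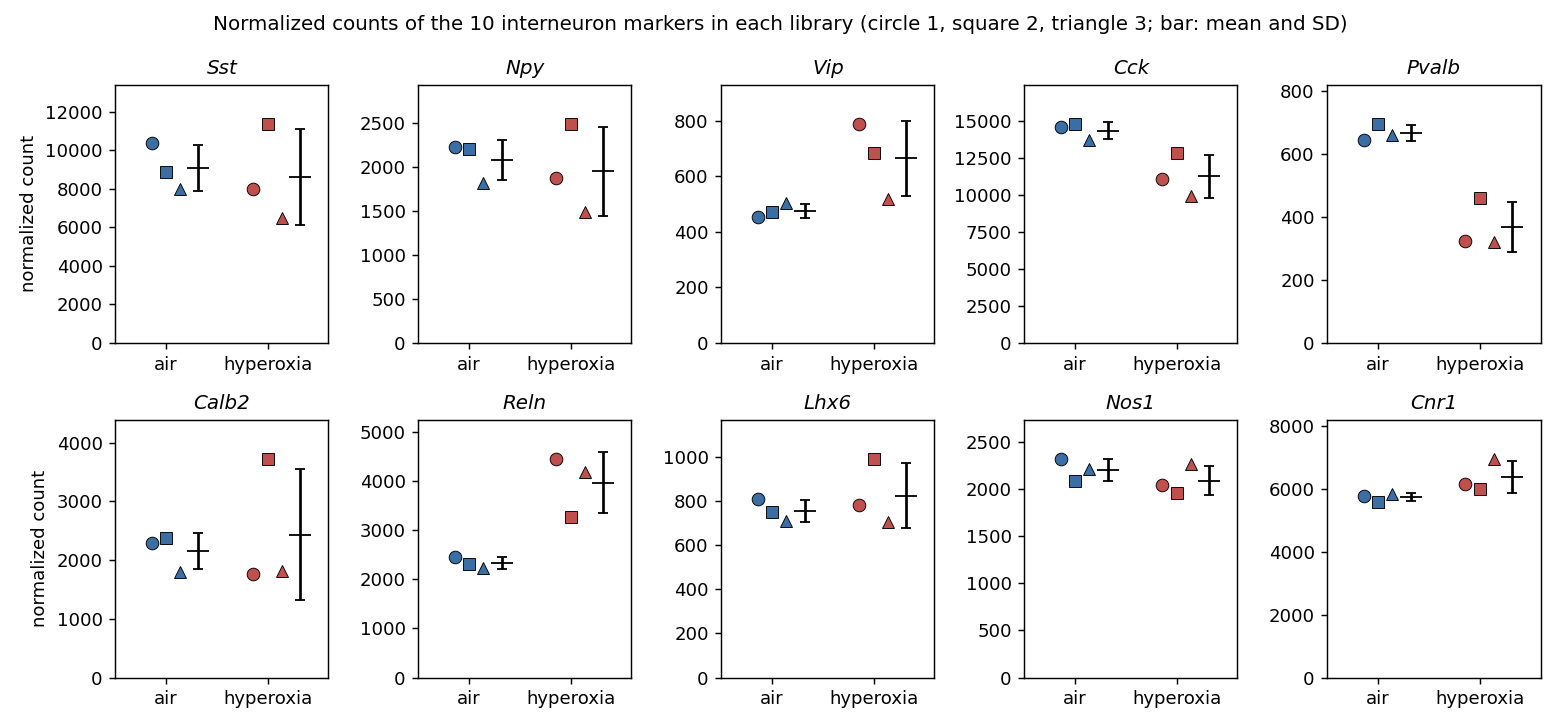
Normalized counts (vertical axis, from 0) of the 10 markers in each library of air-exposed and hyperoxia-exposed mice, with circle, square and triangle for libraries 1, 2 and 3 and a bar for the mean and SD (n = 3). The groups do not overlap for Vip, Cck, Pvalb, Reln and Cnr1, and the square of hyperoxia is the highest point for Sst, Npy, Calb2 and Lhx6.

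Sst (chr16:23889573-23890958, minus strand) encodes somatostatin, the peptide of interneurons that inhibit dendrites. Its normalized counts were 10383, 8901 and 8008 in air and 8000, 11358 and 6482 in hyperoxia, in the order of the library numbers, as for each marker below. The hyperoxia libraries spanned those of air, with library 2 above every air library and libraries 1 and 3 below every one, library 1 by little. The means were 9097 ± 1200 and 8613 ± 2495 (SD, n = 3), and the log2 fold change was -0.11 ± 0.18 (SE; adjusted p = 0.67, limma), with a 95% interval of -0.51 to 0.29. The direction turned with the setting: it was -0.33 without hyperoxia library 2 (called lower, adjusted p = 0.0336, limma), 0.076 without hyperoxia library 3, and 0.14 with the correction for length and GC content.

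Npy (chr6:49822710-49829507, plus strand) encodes neuropeptide Y, which is made by many somatostatin cells and by neurogliaform cells and dampens transmitter release. It read 2221, 2202 and 1815 in air and 1875, 2483 and 1486 in hyperoxia. The order of the hyperoxia libraries was that of Sst, with library 2 the highest and library 3 the lowest of all 6. The means of 2079 ± 229 and 1948 ± 502 (SD, n = 3) gave a log2 fold change of -0.12 ± 0.16 (SE; adjusted p = 0.608, limma). It was -0.31 without hyperoxia library 2 (adjusted p = 0.0427), 0.059 without hyperoxia library 3 and 0.17 with length and GC content corrected. On the log2 scale, Npy relative to Sst was -2.13 ± 0.11 in air and -2.14 ± 0.05 in hyperoxia (SD, n = 3), a difference of -0.01 (p = 1.0, exact two-sided permutation test). In the counts, hyperoxia library 2 and air libraries 1 and 2 were the highest for both Sst and Npy, and hyperoxia library 3 was the lowest. The permutation test compares the group means, and whether the genes varied together between libraries was not tested.

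Vip (chr10:5639218-5647617, plus strand) encodes vasoactive intestinal peptide, made by interneurons that mostly inhibit other interneurons. It read 452, 472 and 502 in air and 787, 685 and 519 in hyperoxia. Every hyperoxia library was above every air library, although hyperoxia library 3 was above air library 3 by little. The means were 475 ± 25.2 and 664 ± 135 (SD, n = 3), a log2 fold change of 0.46 ± 0.14 (SE; adjusted p = 0.0339, limma; 95% interval 0.15 to 0.78). Vip was no longer called when air library 1, 2 or 3 was left out (adjusted p = 0.122, 0.102 and 0.067) or hyperoxia library 1 (0.123), in limma without the mean-variance trend (0.0851), or with length and GC content corrected (0.0871). When single libraries were left out, its log2 fold change lay between 0.33 and 0.63.

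Cck (chr9:121489824-121495694, minus strand) encodes cholecystokinin, the peptide of a class of basket cells, which pyramidal cells make as well. Its counts were 14557, 14761 and 13675 in air and 11095, 12797 and 9900 in hyperoxia. All hyperoxia libraries lay below all air libraries. The means were 14331 ± 577 and 11264 ± 1456 (SD, n = 3), so that Cck fell by 0.35 on the log2 scale (SE 0.10; adjusted p = 0.0213, limma; 95% interval -0.57 to -0.14). Cck was no longer called when air library 1, air library 2 or hyperoxia library 1 was left out (adjusted p = 0.0836, 0.0908 and 0.0704), in limma without the trend (0.0668), or with length and GC content corrected, at -0.16 (0.0536). Of all genes tested, 15.6% were called lower and 14.9% higher. Of 12 pyramidal cell genes, 4 fell (Spink8, Neurod6, Nptxr and Slc17a7) and 3 rose (Mpped1 and Kcnq5 among them), and their median log2 fold change was -0.27, beside -0.0072 for all genes tested. Among them Slc17a7, the vesicular glutamate transporter of these cells, fell by 0.34 on the log2 scale in the libraries labelled 85% oxygen (adjusted p = 0.0115, limma), and was not called without air library 1 or air library 2 or under quantile normalization (-0.11). Nptxr and Mpped1 were not called without air library 1, 2 or 3 or hyperoxia library 1, and Kcnq5 was called without hyperoxia library 2 but in no other fit that left out 1 library. Mpped1 and Kcnq5 were named after their values were seen. The part of pyramidal cells in the Cck value was not tested.

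Pvalb (chr15:78191114-78206400, minus strand) encodes parvalbumin, the calcium buffer of fast-spiking basket and axo-axonic cells, whose level rises during the first postnatal weeks in mice. It read 643, 693 and 660 in air and 324, 459 and 319 in hyperoxia. All hyperoxia libraries were far below the lowest air library. The means were 665 ± 25.3 and 367 ± 79.1 (SD, n = 3), and Pvalb fell by 0.88 on the log2 scale (SE 0.14; adjusted p = 0.00208, limma; 95% interval -1.19 to -0.57), to 0.552 of the level in air. It was called lower in all 17 alternative settings, with adjusted p between 3.57e-07 and 0.0163, and its log2 fold change lay between -1.05 and -0.79 when single libraries were left out.

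Calb2 (chr8:110137502-110168210, minus strand) encodes calretinin, the calcium-binding protein of interneurons that contact other interneurons. It read 2286, 2383 and 1806 in air and 1759, 3720 and 1814 in hyperoxia. Hyperoxia library 2 was 2.08 times the mean of hyperoxia libraries 1 and 3, the widest such gap among the 10 markers. It was also the hyperoxia library with the highest summed thalamus and habenula markers, at 15140 against 10900 and 11690 in libraries 1 and 3. Calb2 is itself in these sums, with the counts above, so they are not separate from the gap. Of the 13 genes of that list tested, 8 were highest in hyperoxia library 2, Calb2 among them. The part of that tissue in the gap was not tested. The means were 2158 ± 309 and 2431 ± 1117 (SD, n = 3), with a log2 fold change of 0.09 ± 0.25 (SE; adjusted p = 0.807, limma; 95% interval -0.47 to 0.65). Without hyperoxia library 2 it was -0.26 (adjusted p = 0.0645), and without air library 3 it was -0.03.

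Reln (chr5:21884454-22344702, minus strand) encodes reelin, a large secreted glycoprotein that Cajal-Retzius cells release during cortical layering and that neurogliaform and some somatostatin cells make after birth. It read 2455, 2312 and 2224 in air and 4444, 3256 and 4184 in hyperoxia. The lowest hyperoxia library, library 2, was above the highest air library. The means were 2330 ± 117 and 3961 ± 624 (SD, n = 3), a rise of 0.75 on the log2 scale (SE 0.11; adjusted p = 0.00167, limma; 95% interval 0.504 to 1.004), and the call held in all 17 alternative settings (adjusted p between 6.25e-09 and 0.0164). Reln exons share 246 bases with Gm10475 on the other strand, which had a mean normalized count of 3.2.

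Lhx6 (chr2:36081953-36105408, minus strand) encodes a LIM homeodomain transcription factor that cells from the medial ganglionic eminence keep as they mature, so that it marks somatostatin and parvalbumin cells alike. It read 808, 748 and 708 in air and 780, 990 and 704 in hyperoxia. The groups overlapped, and hyperoxia library 2 was the only hyperoxia library above the air libraries. The means were 755 ± 50.2 and 824 ± 148 (SD, n = 3), with a log2 fold change of 0.11 ± 0.12 (SE; adjusted p = 0.512, limma; 95% interval -0.16 to 0.39), and of -0.025 without hyperoxia library 2. Its exons share 104 bases with Gm27953 on the same strand, for which no value was found in the deposited table.

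Nos1 (chr5:117781032-117958840, plus strand) encodes the neuronal nitric oxide synthase, found in neurogliaform and ivy cells and in some cells with somatostatin. It read 2316, 2081 and 2210 in air and 2044, 1961 and 2261 in hyperoxia. The groups overlapped, and of all 10 markers Nos1 had the lowest spread in hyperoxia, with a coefficient of variation of 7.41%. The means were 2202 ± 118 and 2088 ± 155 (SD, n = 3), a log2 fold change of -0.08 ± 0.08 (SE; adjusted p = 0.486, limma), and the 95% interval from -0.26 to 0.10 leaves room for a small change in either direction. Its exons share 268 bases with Gm26995 on the other strand, which had a mean normalized count of 2.2.

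Cnr1 (chr4:33924593-33948831, plus strand) encodes the type 1 cannabinoid receptor, which sits on the axon terminals of cholecystokinin basket cells and, at lower density, of pyramidal cells. It read 5762, 5577 and 5838 in air and 6142, 5987 and 6937 in hyperoxia. The lowest hyperoxia library was above the highest air library, yet the step was small. The means were 5726 ± 134 and 6355 ± 510 (SD, n = 3), with a log2 fold change of 0.15 ± 0.08 (SE; adjusted p = 0.166, limma; 95% interval -0.02 to 0.32). Without hyperoxia library 2, the log2 fold change was 0.19 and Cnr1 was called higher (adjusted p = 0.0383).

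**Figure D2:**
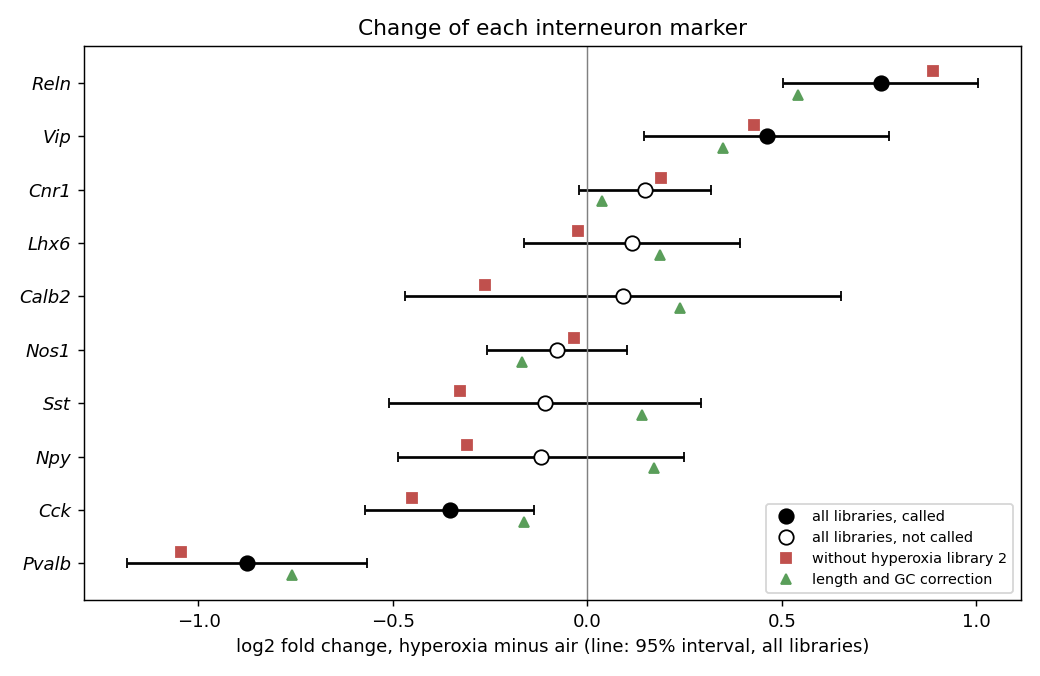
Log2 fold change, hyperoxia minus air, of each marker (horizontal axis), with the 95% interval over all 6 libraries as a line, filled where called, and the values without hyperoxia library 2 (squares) and after the length and GC correction (triangles). Reln and Pvalb lie far from 0 in all 3 fits, at 0.75 and -0.88 over all libraries, while the fits of Sst and Npy fall on both sides of 0.

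The order of the levels was compared per kilobase of merged exons, since the markers differ in length from 566 bases (Npy) to 23738 bases (Reln). In air, the mean normalized count per kilobase was 12620 for Sst, 10980 for Cck, 3674 for Npy, 1238 for Calb2, 889 for Cnr1, 639 for Pvalb, 198 for Nos1, 157 for Lhx6, 140 for Vip and 98.2 for Reln. The neighbours Sst and Cck, and Lhx6 and Vip, overlapped between their libraries, and all other neighbours in this order did not. In hyperoxia, the means of the first 6 kept this order, from 11950 for Sst and 8632 for Cck to 353 for Pvalb. Here Sst and Cck overlapped, as did Calb2 and Cnr1. The first 6 were followed by Vip at 195, Nos1 at 187, Lhx6 at 172 and Reln at 167. Neighbours from Vip to Reln all overlapped, while Pvalb and Vip did not. Reln was thus the lowest marker per kilobase in both groups, below every other marker in air and within the spread of Lhx6 in hyperoxia.

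**Figure D3:**
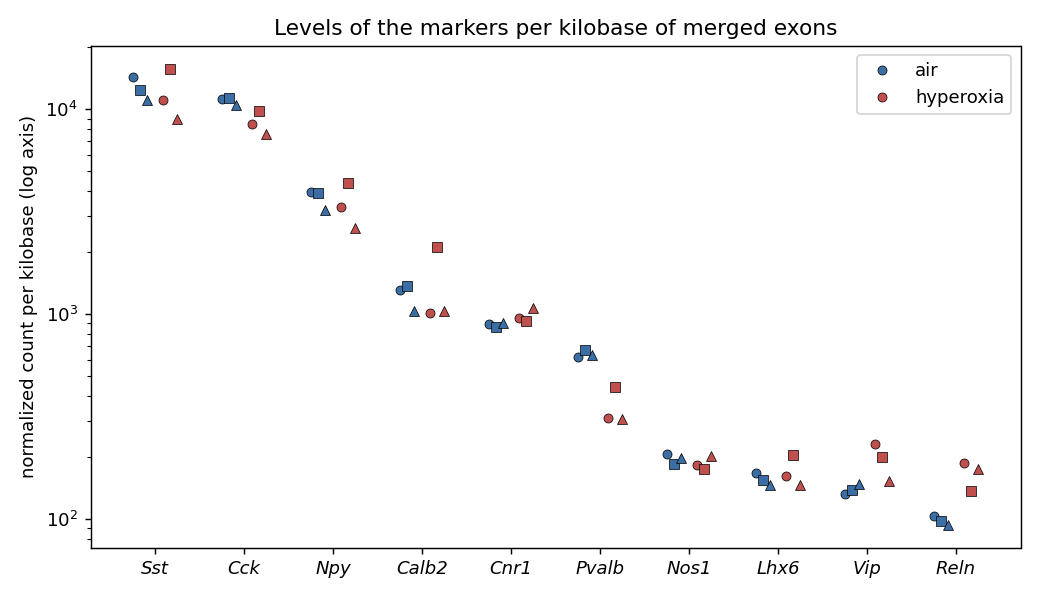
Normalized count per kilobase of merged exons (log axis) of the 10 markers in each library, ordered by the mean in air, with circle, square and triangle for libraries 1, 2 and 3 of air (blue) and hyperoxia (red). Sst and Cck are the highest and Reln the lowest in air, and the 4 lowest markers draw together in hyperoxia.

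To set the markers against the whole of the inhibitory cells, their log2 values were taken relative to the mean of Gad1 and Gad2, the GABA-synthesizing enzymes, and Slc32a1, the vesicular GABA transporter. This reference was 12.01, 11.94 and 11.88 in air and 11.94, 12.02 and 11.86 in hyperoxia, a difference of -0.01 (p = 0.9, exact two-sided permutation test). Its members taken singly did not pass the test, with log2 fold changes of -0.05 for Gad1, 0.17 for Gad2 and -0.14 for Slc32a1 (adjusted p = 0.617, 0.107 and 0.258, limma), although Slc32a1 was called lower without hyperoxia library 2 (-0.22, adjusted p = 0.0306). Relative to this reference, Pvalb differed by -0.87 and Cck by -0.35, and Reln by 0.76 and Vip by 0.47, and for these 4 the groups did not overlap. Each had p = 0.1 in the exact two-sided permutation test, the smallest that 3 against 3 libraries allow, and 0.25 after adjustment over the 10 markers. The other 6 markers overlapped, among them Cnr1 with a difference of 0.16. With all 12 pan-GABAergic genes as the reference, the same 4 did not overlap, with -0.88 for Pvalb and 0.75 for Reln. Since Cck, Cnr1, Nos1, Calb2 and Reln are also made by other cells, their relative values are not levels per inhibitory cell.

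Of 5 pairs of markers from the same or a related class, 2 differed without overlap of the groups. Pvalb relative to Lhx6, which parvalbumin cells share with somatostatin cells, was -0.33, -0.11 and -0.10 on the log2 scale in air and -1.27, -1.11 and -1.14 in hyperoxia. Cck relative to Cnr1, markers of the same basket cell class, was 1.34, 1.40 and 1.23 in air and 0.85, 1.10 and 0.51 in hyperoxia. In both, all hyperoxia libraries were below all air libraries, by -0.99 and -0.50 on average (p = 0.1 each, exact two-sided permutation test; 0.25 after adjustment over the 5 pairs). Sst relative to Lhx6 differed by -0.22 (p = 0.2), Vip relative to Calb2 by 0.37 (p = 0.6) and Npy relative to Sst by -0.01 (p = 1.0, all exact permutation tests), and these groups overlapped.

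Other genes of the interneuron classes did not all follow the marker of their class. In the counts of each list below, rose and fell mean called higher and called lower. Of all genes tested, 30.5% were called (14.9% higher and 15.6% lower), and 43.7% without hyperoxia library 2. Of 12 pan-GABAergic genes, 1 rose and 1 fell: Erbb4, the neuregulin receptor of interneurons, by 0.85 on the log2 scale (adjusted p = 0.00166, limma) and Dlx5, a transcription factor of their precursors, by -0.43 (0.0256). Their median log2 fold change was -0.10. Dlx5 was no longer called when air library 1 or 2 or hyperoxia library 1 or 3 was left out, or with length and GC content corrected. Without air library 1, air library 2 or hyperoxia library 1 the called genes came to 1, and without hyperoxia library 2 the called genes came to 5, of which 4 were lower.

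Of 12 genes of cells from the medial ganglionic eminence, 5 rose and 1 fell, with a median log2 fold change of 0.29. Sox6, a transcription factor that these cells need to mature, rose from 534 ± 70.2 to 1105 ± 107 normalized counts (SD, n = 3), by 1.05 on the log2 scale (adjusted p = 0.000508, limma). Chodl, the marker of long-range somatostatin cells with nitric oxide synthase, rose by 1.25 (adjusted p = 0.00991) from a low mean of 15.5 ± 2.96 to 38.6 ± 9.42 normalized counts. Nxph2 (0.99), Satb1 (0.61) and Crhbp (0.50) also rose, and Chrna2, a nicotinic receptor subunit of somatostatin cells at the outer border of the hippocampus, fell by 0.93. Nxph2 was not called without air library 1 or 2 or hyperoxia library 1, Chrna2 without air library 1, 2 or 3 or hyperoxia library 1, and Satb1 with length and GC content corrected. Satb1, Crhbp and Chrna2 were named after their values were seen. Sox6 and Chodl were thus called higher, while the markers Lhx6, Sst and Npy did not pass the test. The differences between them were not tested, nor was the part of other cells in these values.

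None of the other parvalbumin cell genes tested was called lower with Pvalb over all 6 libraries. Of 13 such genes, 3 rose and none fell in limma (2 were lower at an unadjusted p under 0.05, and none in edgeR or DESeq2): Tac1, the tachykinin precursor, by 0.94 on the log2 scale (adjusted p = 0.00239), Tmem132c by 0.63 (0.0333) and Kcnc2, a fast potassium channel subunit, by 0.35 (0.00546). The other 10 did not pass the test, among them Kcnc1, the partner of that channel, at -0.16 (adjusted p = 0.182) and Syt2, the calcium sensor of their terminals, at 0.16 (0.233). The median of the 13 was -0.12. The part of other cells or neighbouring tissue in the values of these 13 genes was not tested. Akr1c18 was at -0.44 (adjusted p = 0.0873, limma) and Acan at -0.39 (0.0711), while Cox6a2 was at 0.78 (0.0713). These genes were named after their values were seen. Tmem132c was not called without air library 2, air library 3 or hyperoxia library 1, and without hyperoxia library 2 the called genes came to 5 higher, Syt2 among them, and 2 lower. The called genes also came to 6 without hyperoxia library 3, and to 5 in DESeq2 and with length and GC content corrected.

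Of 18 genes of cells from the caudal ganglionic eminence, 6 rose and 3 fell, with a median of 0.19. Among those that rose were Crh, corticotropin-releasing hormone, by 0.82 on the log2 scale (adjusted p = 0.0115, limma) and Egfr by 0.61 (0.000892). The 3 that fell were Sncg, a marker of a class of cholecystokinin basket cells, by 1.80 (adjusted p = 0.00476), Htr3a, the serotonin receptor channel of these cells, by 0.60 (0.0173), and Tac2 by 0.47 (0.0466). Sncg read 103 ± 18.8 normalized counts in the libraries labelled air and 31.6 ± 18.8 in those labelled 85% oxygen (SD, n = 3). Htr3a was not called without air library 2, air library 3 or hyperoxia library 1, and Tac2, named after its value was seen, was called without hyperoxia library 2 but in no other fit that left out 1 library.

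Cajal-Retzius cells are a source of Reln beside interneurons. Of 8 genes of these cells, 1 rose and 1 fell, and the median log2 fold change was -0.10. Ndnf, which neurogliaform cells also make, rose by 0.37 on the log2 scale (adjusted p = 0.0152, limma; not called without air library 3 or with length and GC content corrected). Ebf3 fell by 0.64 (adjusted p = 0.0131; not called without air library 1, air library 2 or hyperoxia library 1), Trp73 was at -0.20 (0.386) and Cacna2d2 at -0.01. Of the reelin receptors and their adaptor, Vldlr rose by 0.38 (adjusted p = 0.00889), while Lrp8, the other receptor, was at 0.25 (0.06) and Dab1, the adaptor phosphorylated when reelin binds, at 0.14 (0.188). Without hyperoxia library 2, all 3 were called higher, and Lrp8 was also called in DESeq2 and under quantile normalization. The part of Cajal-Retzius cells in the Reln value was not tested.

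Receptors of these and related peptides changed in both directions. Of 11 tested, 3 rose and 3 fell, with a median of 0.02, and 3 others (Sstr5, Npy4r and Cckar) were too low to test. Cckbr, the brain receptor of cholecystokinin, rose by 0.91 on the log2 scale (adjusted p = 0.00699, limma), from 654 ± 63.5 to 1261 ± 383 normalized counts (SD, n = 3), opposite to its ligand. Adcyap1r1, the receptor of the peptide PACAP, rose by 0.57 (adjusted p = 0.000998) and Sstr1, a somatostatin receptor, by 0.66 (0.0103). The neuropeptide Y receptors Npy1r and Npy2r fell by 0.52 and 0.44 (0.00444 and 0.0446), and the somatostatin receptor Sstr3 fell by 0.37 (0.0131). Vipr1, a receptor of vasoactive intestinal peptide, was at -0.29 (0.0825) and was called lower without hyperoxia library 1 (-0.41, 0.02). Sstr1 was not called without air library 2, Sstr3 without air library 1 or hyperoxia library 1, and Npy2r without air library 1, 2 or 3 or hyperoxia library 1, in limma without the trend, or in edgeR.

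Genes of the nitric oxide pathway were also tested, beside Nos1 itself. Of 10, 4 rose and 1 fell, with a median of 0.34. Gucy1a3 and Gucy1b3, the subunits of the guanylate cyclase that nitric oxide activates, rose by 0.54 and 0.31 on the log2 scale (adjusted p = 0.0043 and 0.0321, limma), and Prkg2, a kinase that cyclic GMP activates, rose by 1.04 (0.00879). Nos2, the inducible synthase, rose by 1.08 (0.0431) from a low mean of 32.8 ± 15.7 to 66.6 ± 18.9 normalized counts (SD, n = 3). Dynll1, a dynein light chain that binds the neuronal synthase, fell by 0.37 (0.0147). Gucy1b3 was not called without air library 1, 2 or 3 or hyperoxia library 1, and Dynll1 without air library 1, air library 2 or hyperoxia library 1. Nos2 was not called without air library 1 or 3 or hyperoxia library 1 or 2, in edgeR, or under quantile normalization. In limma without the trend, none of these 3 was called. The called genes came to 2 without air library 1 or hyperoxia library 1 and to 3 without air library 2 or air library 3.

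Of 9 endocannabinoid pathway genes tested beside Cnr1, none rose and 4 fell in limma over all 6 libraries, with a median of -0.21. None was higher at an unadjusted p under 0.05, in edgeR or in DESeq2. Dagla, which makes the endocannabinoid 2-arachidonoylglycerol, fell by 0.59 on the log2 scale (adjusted p = 0.00222), from 11236 ± 658 to 7474 ± 911 normalized counts (SD, n = 3). Napepld and Faah, which make and break down anandamide, fell by 0.69 and 0.39 (0.000998 and 0.00251), and Abhd6 fell by 0.21 (0.0388). Cnr1 itself did not pass the test (0.15, adjusted p = 0.166), and its difference from these genes was not tested. Abhd6 was called without hyperoxia library 2 but in no other fit that left out 1 library.

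Of 11 other neuropeptide precursors of the hippocampus and its surroundings, 5 rose (Adcyap1, Cort, Nts, Tac1 and Crh) and 2 fell (Penk and Tac2), with a median of 0.14. Adcyap1, the precursor of PACAP, rose by 1.501 on the log2 scale (adjusted p = 0.000461, limma), from 191 ± 17.7 to 548 ± 113 normalized counts (SD, n = 3). Cort, the precursor of cortistatin, which is close to somatostatin and made by some of the same cells, rose by 1.23 (0.00814), and Nts by 1.06 (0.00137). Penk, the enkephalin precursor, named after its value was seen, fell by 0.85 (0.000587). Tac1, Crh and Tac2 are also in the lists above. Cort was thus higher in hyperoxia while Sst did not pass the test, and a test of the difference between them was not made.

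**Figure D4:**
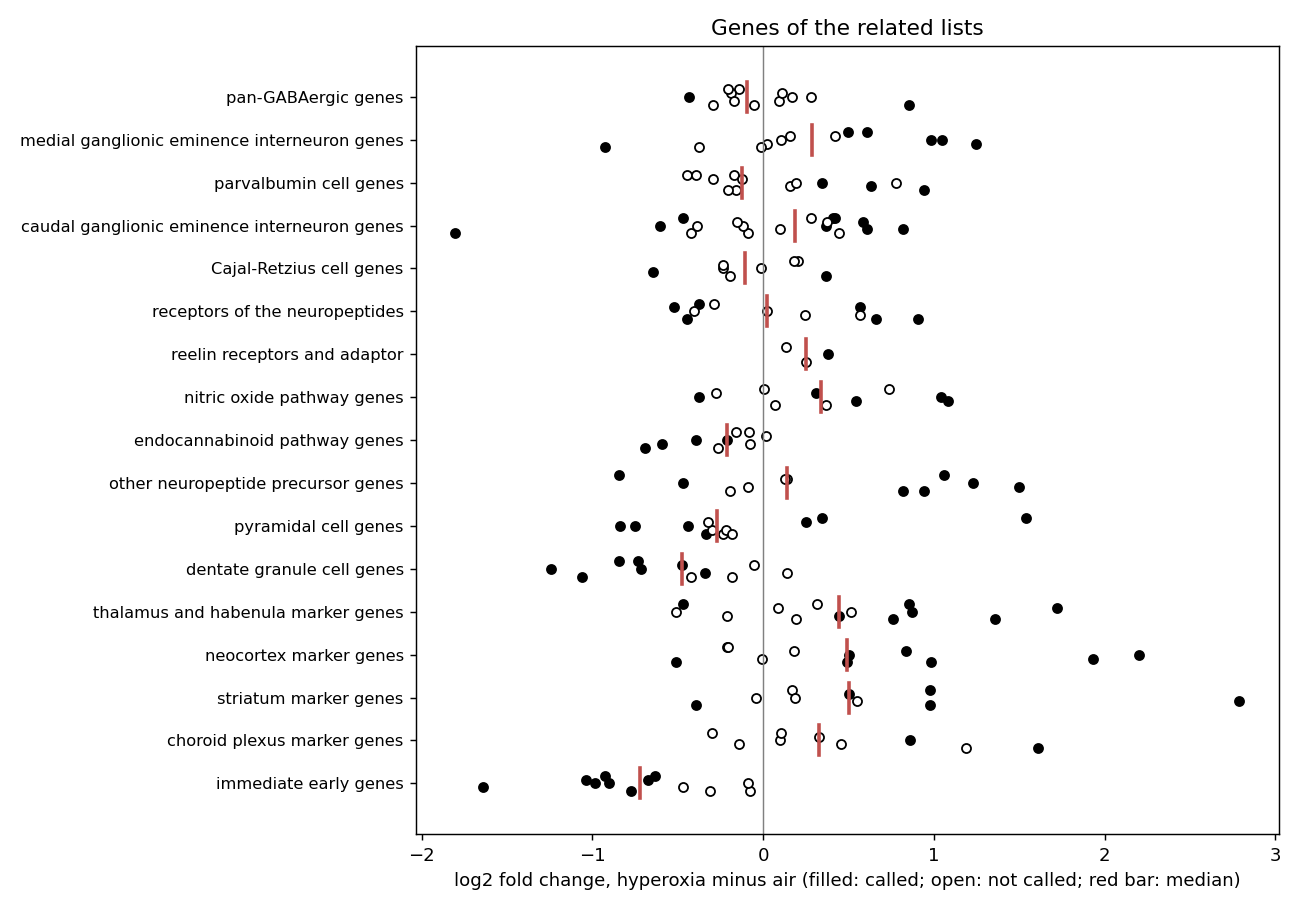
Log2 fold change, hyperoxia minus air (horizontal axis), of the tested genes of 17 lists, 1 row per list, filled where called and open where not, with a red bar at the median. The lists of neighbouring tissue and of nitric oxide signalling have medians above 0, from 0.33 to 0.51, and dentate granule cell genes and immediate early genes have medians of -0.48 and -0.72.

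Genes of other cells moved beside the markers, in directions that also rest on the group names of the columns, and their part in the marker values was not tested. Of all genes tested, 14.9% were called higher and 15.6% lower. Of 11 dentate granule cell genes, 7 fell and none rose in limma over all 6 libraries (none was higher at an unadjusted p under 0.05, in edgeR or in DESeq2), with C1ql2 at -1.24 and Plekha2 at -1.06 on the log2 scale and a median of -0.48. Of 12 immediate early genes, which report recent neuronal activity, 8 fell and none rose in limma, and again none was higher at an unadjusted p under 0.05, in edgeR or in DESeq2, with Arc at -1.64 and Npas4 at -1.04 and a median of -0.72. Their summed normalized counts were 17610 to 20930 in air and 9487 to 11320 in hyperoxia. Of the markers of neighbouring tissue, 6 of 13 thalamus and habenula genes rose (Slc17a6 by 1.72, Ramp3 by 1.36 and Rora by 0.87) and 1 fell (Tac2), 6 of 11 neocortex genes rose (Tshz2 by 2.20 and Foxp2 by 1.94) and 1 fell (Scnn1a), and 4 of 9 striatum genes rose (among them Gpr6 by 0.98, Drd1 by 0.98 and Rgs9) and 1 fell (Ppp1r1b). Of the 9 choroid plexus genes, 2 rose (Aqp1 by 1.61 and Prlr by 0.86) and the most abundant, Enpp2 and Ttr, did not pass the test. Ramp3 was not called without air library 2, air library 3 or hyperoxia library 1 or in limma without the trend. Gpr6 was not called without air library 1, and Prlr not without air library 2 or hyperoxia library 1. The called genes came to 4 of the 13 thalamus and habenula genes without air library 1, 2 or 3 or hyperoxia library 1, and to 4 of the 11 granule cell genes without air library 1, air library 2 or hyperoxia library 1.

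For each marker, the protein-coding gene whose centred log2 values over the 6 libraries lay nearest was sought among 14930. The nearest gene to Pvalb was Brms1, with a root mean square difference of 0.0523 on the log2 scale, and the nearest to Reln was St6gal2, a sialyltransferase (0.0361). For Cck it was Borcs8 (0.0217), for Vip Rprm (0.0689), for Lhx6 Tbcb (0.0212), for Nos1 Tacc2 (0.0215) and for Cnr1 Kpnb1 (0.0166). Sst and Npy had Myl6b (0.0594) and Srgn (0.0469) as their nearest, and none of the 10 markers had another marker as its nearest gene. Calb2 was the least matched, with Fstl3 at 0.141, a gene with a mean of 10.3 ± 2.62 normalized counts in air. With 6 libraries and so many genes compared, such likeness is a description of these libraries.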

How the data were processed

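RNA of the left hippocampus was sequenced as strand-specific polyA libraries, paired-end, on an Illumina NextSeq 500. Per the labels, the authors used FastQC, STAR 2.5.3a, HTSeq and DESeq2, while the genome build, annotation and strand setting of the counting were not given in the sources used here. Each deposited signal (1 per gene and library) is the authors' read count divided by 1 DESeq2 size factor per library. In every library 100% of values lay within 0.01 of whole multiples of 1 read, so reads were recovered. The authors' second table (fold changes, p-values and mean counts of their own comparison) was not used.

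Genes with a mean of at least 10 were compared between the groups on log2(value + 1) in R 4.3.3, by limma 3.58.1 with its mean-variance trend. P-values were adjusted by Benjamini-Hochberg, and 0.05 was the threshold. Fold changes on this scale understate those of low genes. Since nothing says whether mice shared a litter, p-values measure the spread between these libraries. Alternatives were pseudocounts of 0.5 and 5, no filter or a mean of at least 50, quantile and TMM scaling, limma without the trend, edgeR 4.0.16 and DESeq2 1.42.0 on the recovered reads, removal of each library's trend on length and GC content (mgcv 1.9.3; 17735 genes), each library left out in turn and, added later, the column number as a block. In simulated data of 17778 genes, 100 were changed by 1 and 100 by 0.5 on the log2 scale. Of these changes, 75% and 32% were recovered. In the deposited data 30.5% of genes were called, so the recovered shares need not hold there. Lengths and positions are from GENCODE M21 (GRCm38; 99.7% of identifiers found, 84.85% with the same version). Promoters are from RefSeq. Permutation tests used scipy 1.17.1 under Python 3.11.15, with pandas 2.3.3 and numpy 2.4.6 for tables.

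The markers and the gene lists were chosen with earlier results of these data known, the lists from general knowledge. All 10 markers are named. Of each list, up to 3 called genes with the largest change and no overlap of groups are named, and of the lists of other cells also the 2 with the highest mean. Any gene of the pan-GABAergic, receptor, reelin, nitric oxide and endocannabinoid lists may be named, as may the nearest gene in pattern to each marker. Genes outside this rule that are named because a count was small, or beside a marker, were chosen after their values were seen (Kcnc1, Syt2, Trp73, Htr3a, Mpped1, Kcnq5, Rgs9 and Scnn1a, with those marked in the text). Some genes that this rule names are not reported here.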

Additional observations from a re-analysis of the deposited data

How the results depend on the processing

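Of the 10 markers, 4 were called, and 4 also under pseudocounts of 0.5 and 5, without the filter, with a mean of at least 50, under quantile and TMM scaling, in edgeR and in DESeq2, each time Cck, Pvalb, Reln and Vip. The count was 2 (Pvalb and Reln) in limma without the trend and after the length and GC correction, and 2 to 7 when each library was left out, the 7 without hyperoxia library 2. Over all genes tested, 5425 were called, and 3056 to 7771 when each library was left out, 3056, 3083 and 3375 without air library 1, air library 2 and hyperoxia library 1. After the length and GC correction, Sst was at 0.14 and Npy at 0.17 on the log2 scale, above 0 where the uncorrected values were below. When each library was left out, the log2 fold change ran from -0.33 to 0.076 for Sst, -0.31 to 0.059 for Npy, -0.26 to 0.28 for Calb2 and -0.025 to 0.22 for Lhx6. Among other genes with values near 0 it ran from -0.060 to 0.044 for Cacna2d2, -0.22 to 0.14 for Rfx3, -0.16 to 0.084 for Tbr1, -0.26 to 0.30 for Enpp2 and -0.44 to 2.23 for Ttr. Tbr1, at -0.01 in limma, was at 0.010 in edgeR, 0.016 in DESeq2 and 0.0059 in edgeR with no filter. The cause was not tested, and a fit with a library left out also rests on fewer libraries. The deposited columns number the libraries 1 to 3 in both groups, while the labels number the mice without pairs. In a fit with this number as a replicate block, added after the data were seen, 4 markers were called, again Cck, Pvalb, Reln and Vip, and 6211 (34.9%) of all genes. Deviations of same-numbered libraries from their group means correlated across genes at -0.0785, 0.129 and 0.0953, and not every library correlated best with its own number, so the number was not used as a pairing. With 3 libraries per group, the intervals of Sst, Npy and Calb2 were wide, and changes of their size could not be told from no change.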
